A study of Mus musculus with 12 samples.

Results

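The subject is a set of 10 transcripts that encode amino acid transporters of the plasma membrane, namely Slc7a1, Slc7a2, Slc7a5, Slc7a11, Slc3a2, Slc38a2, Slc38a3, Slc38a4, Slc43a1 and Slc1a5. They were followed in mouse liver given siRNA against Eif3m, which encodes the translation initiation factor subunit eIF3m. The members were chosen by gene symbol as transporters of the liver and of the stress response. All 10 were found by Ensembl identifier among the 50686 genes of the deposited count table, and 9 of the 10 passed the filter on low counts. The livers came from FVB/N mice of 6 to 8 weeks that received siRNA packed in lipid nanoparticles (LNP) through the tail vein (0.5 mg/kg per dose, 1 dose in every 5 days). There were 4 groups of 3 libraries each: Eif3m siRNA and control siRNA at day 9, and Eif3m siRNA and control siRNA at day 13. The control siRNA is described as scrambled luciferase and listed as luciferase. RNA was taken from ground whole liver, and the labels do not say which liver cells took up the particles. Whether each library came from its own mouse is not stated, and the tests therefore rest on library-to-library spread, which may be technical.

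Hepatocytes take amino acids from portal blood through several carrier families. SLC7A1 and SLC7A2 (CAT1 and CAT2) carry arginine, lysine and ornithine. SLC3A2 (CD98) is a heavy chain that brings light chains such as SLC7A5 (LAT1, for large neutral amino acids) and SLC7A11 (xCT, which exchanges cystine for glutamate) to the cell surface. SLC38A2, SLC38A3 and SLC38A4 (SNAT2, SNAT3 and SNAT4) are sodium-coupled carriers whose substrates include small neutral amino acids. Those of SLC38A3 include glutamine, asparagine and histidine, and glutamine is not carried by SLC38A3 alone. SLC43A1 (LAT3) carries branched-chain amino acids and SLC1A5 (ASCT2) exchanges small neutral amino acids including glutamine. When amino acids are short, the kinase GCN2 phosphorylates eIF2 and the transcription factor ATF4 accumulates. ATF4 binds C/EBP-ATF response elements (CAREs), and Slc7a11, Slc3a2, Slc7a5 and Slc38a2 are among its known targets.

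Libraries held 38783564 to 54538581 counts at day 9 and 7650269 to 9630027 at day 13. The targeted Eif3m transcript lay between 4.71 and 4.88 CPM in siRNA libraries and between 44.1 and 45.4 CPM in controls at day 9. At day 13 it lay between 2.19 and 2.52 CPM in siRNA libraries and between 31.2 and 39.8 CPM in controls. CPM are counts scaled to library size after TMM normalisation. The 2 days are separate sets of libraries, and each siRNA effect was taken against the controls of its own day. On the third principal component day 13 siRNA replicate 2 (36.9) and day 13 control replicate 3 (52.0) stood apart from the 4 other libraries of that day (-37.7 to -4.68), so day 13 results are also given without both. All 9 hepatocyte markers fixed for the check, albumin among them, were tested, and their summed level was 91654 to 98310 CPM in the day 9 siRNA livers, 114716 to 122713 CPM in the day 9 controls, 104395 to 163331 CPM in the day 13 siRNA livers and 172447 to 196026 CPM in the day 13 controls. Of them 2 fell at day 9, beside 6.84% of all genes tested. At day 13, 3 of them rose and 2 fell, beside 12.8% and 10.9% of all genes. In whole liver, fewer cells of a type and less RNA per cell cannot be told apart.

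At day 9, 1 of the 9 tested transporters rose in the siRNA livers (Slc38a2, 1.86-fold) and 1 fell (Slc43a1, to 0.477 of its control). At day 13, 4 of 9 rose (Slc7a2, Slc1a5, Slc43a1 and Slc3a2, by 3.06-fold to 1.48-fold) and 0 fell. Slc43a1 was thus called in opposite directions on the 2 days, and it was the 1 member whose effect differed between the days past the threshold. The tests were edgeR's quasi-likelihood tests across 14248 genes, called at an adjusted p under 0.05. Over all genes tested, 5.94% were called higher and 6.84% lower at day 9, 12.8% higher and 10.9% lower at day 13, and 0.898% higher and 1.66% lower for the day 13 effect minus the day 9 effect. In either direction these were 12.8%, 23.7% and 2.55%. The last split was 128 higher and 236 lower genes, and 86 higher and 290 lower with upper-quartile scaling. The shares for each day rest on 1 estimate of the spread for both days. With each day fitted on its own 6 libraries, 1687 genes were higher and 1725 lower at day 9, and 1060 and 954 at day 13. Which day had more calls thus depended on the fit. The siRNA and control libraries did not overlap for 4 members that were higher and 1 that was lower at day 9, beside 22.5% and 21.0% of all genes, and for 4 higher and 0 lower at day 13, beside 17.2% and 16.0%. The median log2 fold change of the 9 members was 0.19 at day 9 and -0.03 at day 13, beside 0.01 and 0 over all genes. With limma-voom the number that rose at day 9 was 3, since Slc1a5 and Slc7a1 were then called too. By DESeq2 all 4 day 13 calls held. The Slc43a1 call at day 13 ended in 4 alternatives, among them day 13 fitted alone by edgeR (adjusted p = 0.0773). At an unadjusted p under 0.05 there were 4 of 9 members at day 9, beside 3902 of all 14248 genes, and 4 of 9 at day 13, beside 5123 of 14248.

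**Figure D1:**
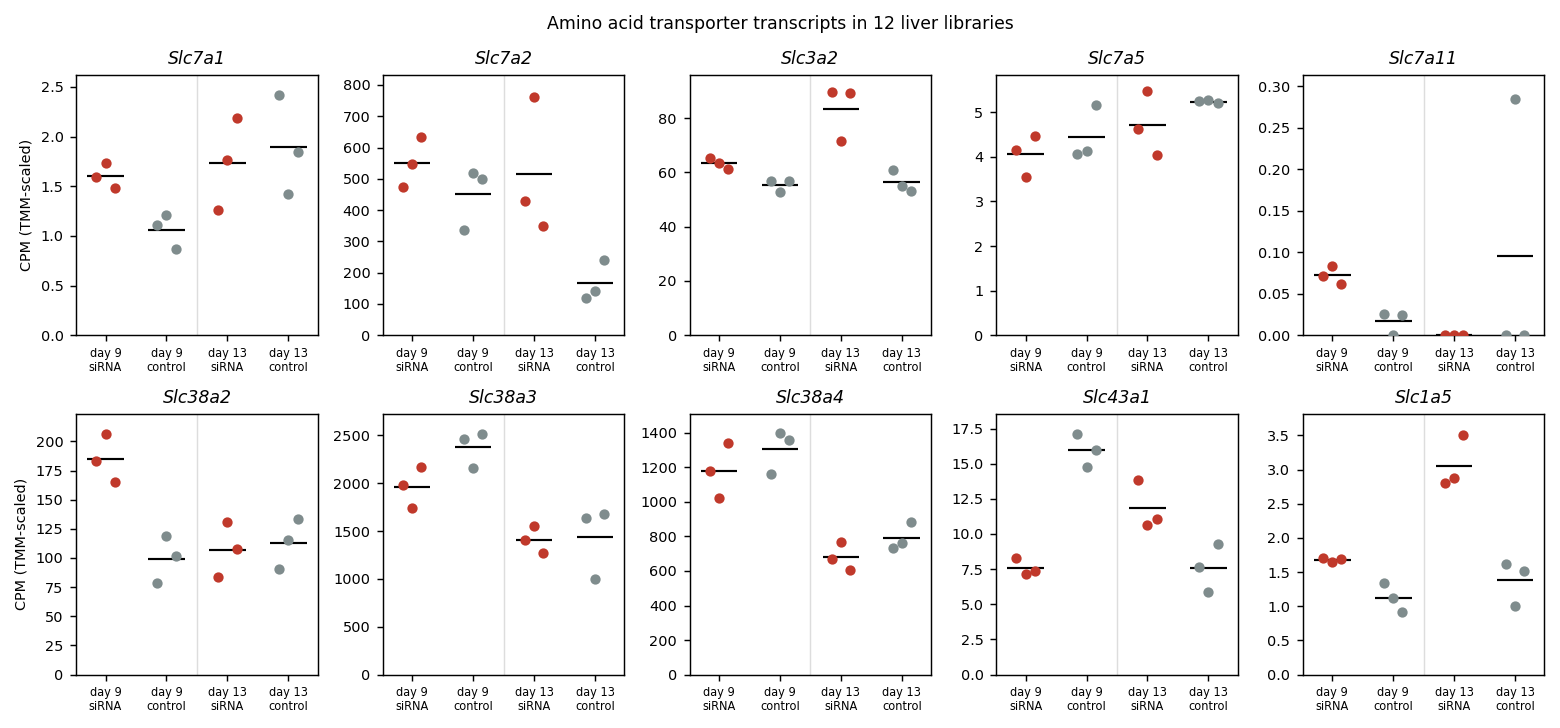
Level of each of the 10 transcripts in CPM on a linear axis from 0, with 1 point per library and a bar at the mean of 3 libraries; siRNA libraries are red and control libraries grey, with day 9 left of the line and day 13 right of it. Slc43a1 lay at 7.17 to 8.29 CPM in siRNA and 14.8 to 17.1 CPM in control livers at day 9, and at 10.7 to 13.9 CPM in siRNA and 5.84 to 9.31 CPM in control livers at day 13.

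**Figure D2:**
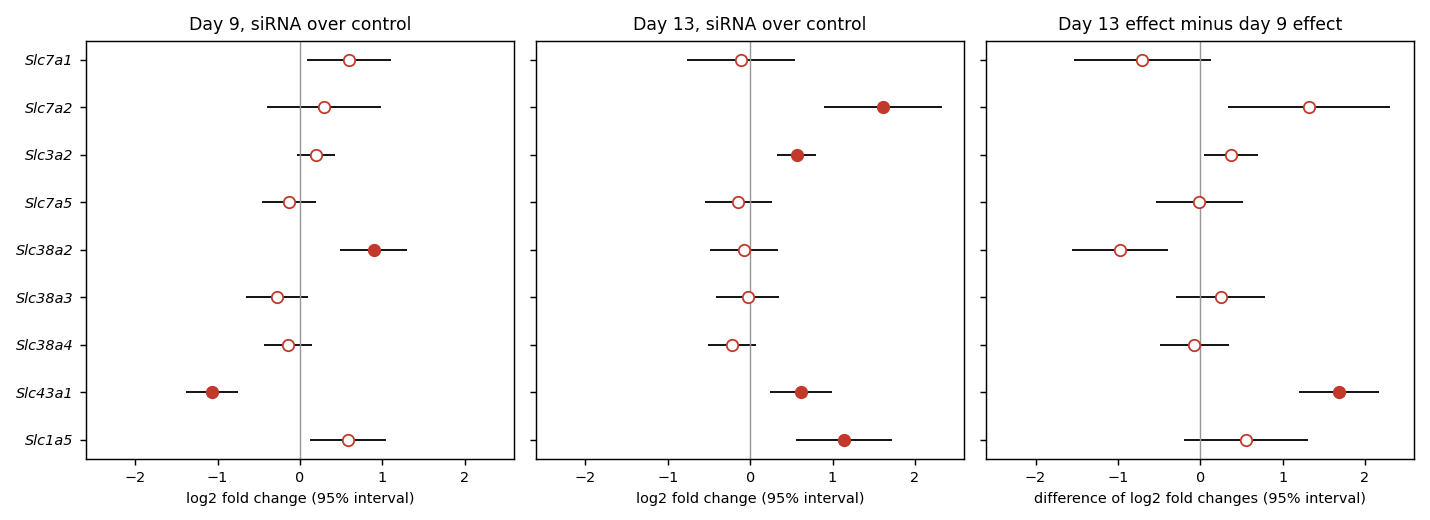
log2 fold change of siRNA over control at each day, and the day 13 value minus the day 9 value, for the 9 members tested; lines are 95% intervals of the edgeR fit and filled points passed an adjusted p under 0.05. Filled points are Slc38a2 and Slc43a1 at day 9, Slc7a2, Slc3a2, Slc43a1 and Slc1a5 at day 13, and Slc43a1 for the difference.

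The cationic carriers were unequal in level. Per kilobase of exon, Slc7a2 in the day 9 controls was at 49.4 ± 11.0 CPM and Slc7a1 at 0.0921 ± 0.0152 CPM (SD, n = 3), and in the 12 libraries the ratio of Slc7a2 to Slc7a1 on this scale was between 62.8 and 724. Slc7a2 (ENSMUSG00000031596, mm10 chromosome 8, plus strand, 40862396 to 40922308) has 15 merged exons. It shares 635 exonic bases with Gm26584 on the opposite strand, which had 0 to 3 counts per library, and since the strand setting is not given in the sources used here, reads of the 2 genes in those bases cannot be assigned with certainty.

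At day 13 Slc7a2 had 429, 762 and 351 CPM in the siRNA libraries, against 121, 143 and 240 CPM in the controls. Each siRNA library exceeded every control. The highest library of each group was the one that stood apart on the third component. The fold was 3.06 (95% interval 1.87 to 5.01, or 1.61 ± 0.324 SE on the log2 scale), at an adjusted p of 0.0043. Without both of those libraries the log2 fold change was 1.54 (adjusted p = 0.000609). Over the 16 alternatives for the day 13 effect the adjusted p ran between 1.6e-06 and 0.0237. At day 9 the siRNA libraries had 474, 548 and 634 CPM, against 336, 520 and 498 CPM in the controls. These ranges overlapped, and the log2 fold change of 0.29 (95% interval -0.40 to 0.98) was not called. The controls of the 2 days stood apart, with 336 CPM as the lowest at day 9 and 240 CPM as the highest at day 13, while the siRNA libraries of the 2 days overlapped. The difference of 1.32 between the 2 effects missed the threshold (adjusted p = 0.141), and it passed by DESeq2 (adjusted p = 0.0305) and without both libraries that stood apart (adjusted p = 0.0280). Over its 21 alternatives this adjusted p ran between 0.0280 and 0.346.

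Slc7a1 (chromosome 5, minus strand, 148327410 to 148399904) was at 1.60, 1.73 and 1.49 CPM in the day 9 siRNA libraries and 1.11, 1.21 and 0.869 CPM in the day 9 controls. The groups did not overlap, and the log2 fold change of 0.59 missed the threshold (adjusted p = 0.123). It passed with limma-voom (adjusted p = 0.0430). Day 13 gave 9 to 20 counts per siRNA library and 10 to 18 counts per control library, and the 95% interval of the fold, 0.589 to 1.46, was wide.

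Of the heavy chain and its light chains, the heavy chain was called at day 13 and LAT1 at neither day. Slc3a2 (chromosome 19, minus strand, 8706882 to 8723369, 13 merged exons) had 89.6, 71.6 and 89.4 CPM in the day 13 siRNA libraries, against 61.0, 55 and 53.2 CPM in the day 13 controls. The lowest siRNA value, in the library that stood apart, was still above the highest control. The fold was 1.48 (95% interval 1.26 to 1.75) and the log2 fold change 0.57 (SE 0.111, adjusted p = 0.00226, or 0.00109 without both libraries that stood apart). Over the 16 alternatives for this effect the adjusted p ran between 1.39e-05 and 0.0282, the highest when day 13 was fitted on its own 6 libraries. At day 9 the siRNA libraries had 65.2, 63.6 and 61.3 CPM, against 56.8, 52.9 and 56.7 CPM in the controls. These groups did not overlap either, but the log2 fold change of 0.19 was not called (adjusted p = 0.268). The difference of 0.37 between the days was not called (adjusted p = 0.210).

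Slc7a5, the LAT1 light chain (chromosome 8, minus strand, 121881150 to 121907694), had 4.16, 3.55 and 4.46 CPM in the day 9 siRNA libraries and 4.06, 4.12 and 5.16 CPM in the day 9 controls. At day 13 it had 4.62, 5.47 and 4.05 CPM in the siRNA libraries, against 5.25, 5.27 and 5.20 CPM in the controls. The groups overlapped on both days. The 95% interval of the fold was 0.726 to 1.14 at day 9 and 0.681 to 1.199 at day 13. Per kilobase of exon Slc3a2 was 14.4 to 18.8 times Slc7a5 in the day 9 siRNA libraries and 11.5 to 14.7 times in the day 9 controls, and 13.7 to 23.2 times in the day 13 siRNA libraries and 10.7 to 12.2 times in the day 13 controls.

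Slc7a11, the xCT light chain (chromosome 3, minus strand, 49892526 to 50443614), was close to undetected and did not enter the test. It had 4, 5 and 3 counts in the day 9 siRNA libraries and 1, 0 and 1 in the day 9 controls, and 0 in each day 13 siRNA library and 0, 2 and 0 in the day 13 controls. Summed over a group this was 12 counts of 154509528 in the day 9 siRNA livers and 2 of 133265600 in the day 9 controls. No fold is given at these counts. A count of 0 in the day 13 siRNA libraries allows up to 3 counts, or 0.278 to 0.420 CPM per library, counting error only.

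Promoters are shown for this pair because Slc7a11, whose window holds CAREs, was hardly detected while its heavy chain Slc3a2 rose at day 13. The RefSeq table of GRCm38.p6, the build also called mm10, holds windows from 250 bases before to 50 after the start site for 6 of the 10 members, 9 windows in all. They were searched on both strands for TGATGNAA, a CARE, and for TGACNNNGC, the core of the antioxidant response element (ARE) bound by NRF2. Capitals mark matches, and each sequence reads 5′ to 3′ on the gene's own strand. The Slc7a11 window is chr3:50443564-50443863 (minus strand) and the Slc3a2 window is chr19:8713848-8714147 (minus strand).
Slc7a11: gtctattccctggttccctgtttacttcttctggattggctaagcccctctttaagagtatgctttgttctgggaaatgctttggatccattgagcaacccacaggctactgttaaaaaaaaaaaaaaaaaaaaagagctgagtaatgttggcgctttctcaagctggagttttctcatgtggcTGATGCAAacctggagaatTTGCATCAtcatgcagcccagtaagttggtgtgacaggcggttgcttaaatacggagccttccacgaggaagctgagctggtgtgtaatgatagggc
Slc3a2: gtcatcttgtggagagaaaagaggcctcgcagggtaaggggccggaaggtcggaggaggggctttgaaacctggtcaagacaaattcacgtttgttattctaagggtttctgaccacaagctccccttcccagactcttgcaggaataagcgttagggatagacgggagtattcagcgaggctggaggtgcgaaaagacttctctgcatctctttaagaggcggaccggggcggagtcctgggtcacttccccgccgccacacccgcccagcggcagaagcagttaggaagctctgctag

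Slc7a11 held 2 CARE matches, TGATGCAA at positions -66 to -59 from the start site and, for the same motif on the opposite strand, its reverse complement TTGCATCA at -47 to -40. Of all 32851 windows of this length in the table, 3.97% held this motif. The Slc3a2 window held neither motif. It lies inside the annotated gene (8706882 to 8723369) and not at its 5′ end, and no other Slc3a2 window was searched. The ARE core, present in 12.4% of all windows, was found in those of Slc7a1 (-11 to -3), Slc38a2 (-27 to -19) and Slc43a1 (-16 to -8). The Slc43a1 window (chr2:84840073-84840372, plus strand) also lies inside its annotated gene (84838850 to 84863594) and not at the 5′ end. No match overlapped another. A match is a string of letters and not a shown binding site.

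The sodium-coupled carriers included the most abundant members and the 1 that rose at day 9. Slc38a2 (ENSMUSG00000022462, chromosome 15, minus strand, 96687392 to 96699730, 11 merged exons) had 183, 207 and 166 CPM in the day 9 siRNA libraries, against 78.2, 119 and 102 CPM in the day 9 controls. Each siRNA library exceeded every control. The fold was 1.86 (95% interval 1.40 to 2.47) and the log2 fold change 0.90 (SE 0.190, adjusted p = 0.00808, and 0.000208 to 0.0378 over its 15 alternatives). At day 13 the siRNA libraries had 83.4, 131 and 108 CPM, against 90.2, 116 and 134 CPM in the controls. The groups overlapped, and the 95% interval of the fold was 0.712 to 1.26. The day 13 effect minus the day 9 effect was -0.97 and missed the threshold (adjusted p = 0.0702). It passed by DESeq2 (adjusted p = 0.0163), with upper-quartile scaling (adjusted p = 0.0498) and without day 13 siRNA replicate 2 (adjusted p = 0.0361), and over its 21 alternatives the adjusted p ran between 0.0163 and 0.141.

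Slc38a3, a carrier of glutamine (chromosome 9, minus strand, 107650634 to 107669530), was at 1743 to 2168 CPM in the day 9 siRNA livers and 2154 to 2519 CPM in the day 9 controls. Its day 13 level was 1269 to 1552 CPM in the siRNA livers and 997 to 1683 CPM in the controls. Slc38a4 (chromosome 15, minus strand, 96994820 to 97055956) was at 1024 to 1341 CPM in siRNA and 1163 to 1399 CPM in control livers at day 9. At day 13 it was at 608 to 769 CPM in siRNA and 734 to 884 CPM in control livers. Neither was called at either day. The 95% intervals of the fold were 0.635 to 1.07 and 0.753 to 1.27 for Slc38a3 at day 9 and day 13, and 0.737 to 1.11 and 0.700 to 1.055 for Slc38a4.

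The other neutral carriers both changed. Slc43a1 (ENSMUSG00000027075, chromosome 2, plus strand, 84838850 to 84863594, 15 merged exons) had 8.29, 7.17 and 7.37 CPM in the day 9 siRNA libraries, against 17.1, 14.8 and 15.98 CPM in the day 9 controls. At day 13 it had 13.9, 10.7 and 11.1 CPM in the siRNA libraries, against 7.67, 5.84 and 9.31 CPM in the controls. On both days the groups were apart, with the siRNA libraries below the controls at day 9 and above them at day 13. The log2 fold change was -1.07 at day 9 (SE 0.147, adjusted p = 0.000603) and 0.62 at day 13 (SE 0.175, adjusted p = 0.0198). The day 13 effect minus the day 9 effect was 1.69 (95% interval 1.197 to 2.176, adjusted p = 0.00277), and it was called in all 21 alternatives (1.51 to 1.94).

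The day 13 rise of Slc43a1 rested on 99 to 115 counts per siRNA library and 41 to 86 per control library. Its call ended when day 13 was fitted on its own 6 libraries (adjusted p = 0.0773) and without day 13 siRNA replicate 1 (0.0682), control replicate 1 (0.0507) or control replicate 2 (0.0710), and it was 0.84 on the log2 scale (adjusted p = 0.00875) without both libraries that stood apart. The controls of the 2 days did not overlap, at 15.95 ± 1.16 CPM on day 9 and 7.61 ± 1.74 CPM on day 13 (SD, n = 3). The day 9 siRNA livers, at 7.61 ± 0.597 CPM (SD, n = 3), lay within the range of the day 13 controls. Day and library set cannot be told apart here. Erythroid markers, 6 of 6 in the file and 4 tested, summed to 306 to 554 CPM in day 9 siRNA livers and 448 to 598 CPM in day 9 controls, and to 447 to 1453 CPM in day 13 siRNA livers and 1652 to 3825 CPM in day 13 controls. Of those markers 2 fell at day 13, beside 10.9% of all genes tested, and their part in the Slc43a1 values was not tested.

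Slc1a5 (chromosome 7, plus strand, 16781340 to 16798274) had 2.80, 2.87 and 3.50 CPM in the day 13 siRNA libraries, against 1.61, 0.997 and 1.52 CPM in the day 13 controls. The siRNA libraries were all higher, on 20 to 32 counts per siRNA library and 7 to 14 per control library. The fold was 2.21 (95% interval 1.47 to 3.31) and the log2 fold change 1.14 (SE 0.273, adjusted p = 0.00800, or 0.0279 without both libraries that stood apart). At day 9 it had 1.70, 1.65 and 1.69 CPM in the siRNA libraries and 1.34, 1.11 and 0.917 CPM in the controls. The groups did not overlap, and the log2 fold change of 0.58 missed the threshold (adjusted p = 0.0918), which it passed with limma-voom (adjusted p = 0.0305). The difference between the days was 0.56 (adjusted p = 0.433).

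Slc1a5 and Slc7a1 are low in these livers, so the marker sums of other cell types are given beside them. Calls among markers stand beside 5.94% of all genes higher and 6.84% lower at day 9, and 12.8% and 10.9% at day 13. Monocyte and macrophage markers (9 of 9 tested) summed to 185 to 206 CPM in day 9 siRNA livers and 104 to 131 CPM in day 9 controls, with 3 rising, and to 104 to 134 CPM in day 13 siRNA livers and 208 to 243 CPM in day 13 controls, with 3 falling. Kupffer cell markers (8 of 8 tested) summed to 494 to 557 CPM in day 9 siRNA livers and 443 to 555 CPM in day 9 controls, with 1 rising and 4 falling. At day 13 they summed to 270 to 348 CPM in siRNA livers and 485 to 539 CPM in controls, with 7 falling. Cholangiocyte markers (5 of 6 tested) summed to 26.4 to 28.9 CPM in day 9 siRNA livers and 20.3 to 25.9 CPM in day 9 controls, and to 26.4 to 35 CPM in day 13 siRNA livers and 20.3 to 26.1 CPM in day 13 controls, with 1 rising at day 13. Endothelial markers (7 of 7 tested) summed to 252 to 291 CPM in day 9 siRNA livers and 228 to 256 CPM in day 9 controls, with 1 rising. At day 13 they summed to 213 to 237 CPM in siRNA livers and 255 to 312 CPM in controls, with 3 falling. Stellate cell markers (8 of 8 tested) summed to 351 to 391 CPM in day 9 siRNA livers and 260 to 352 CPM in day 9 controls, with 1 rising. At day 13 the stellate sums were 351 to 372 CPM in siRNA livers and 434 to 585 CPM in controls, with 3 falling. Neutrophil, T and NK cell, and B and plasma cell markers had 0 called at either day and sums of at most 8.55, 10.1 and 9.08 CPM. No marker of any list was at 0 in all libraries. The part of these cells in the 2 transporters was not tested.

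Scaled to exon length, the set was dominated by few members. Slc38a3, Slc38a4 and Slc7a2 together made up 94.4% ± 0.925 of the summed level in the day 9 siRNA livers and 96.3% ± 0.168 in the day 9 controls. At day 13 the share was 92.2% ± 1.2 with Eif3m siRNA and 93.6% ± 1.03 with control siRNA (SD, n = 3 each). The order of Slc38a2 and Slc3a2 differed between the groups of day 9. In the day 9 siRNA libraries Slc38a2 was at 18.7 to 23.4 CPM per kilobase and Slc3a2 at 17.4 to 18.5, whereas in the day 9 controls Slc38a2 was at 8.85 to 13.4 and Slc3a2 at 14.99 to 16.09. In the day 13 siRNA livers Slc38a2, at 9.43 to 14.8 CPM per kilobase, lay below Slc3a2, at 20.3 to 25.4. In the day 13 controls the 2 overlapped, at 10.2 to 15.1 and 15.1 to 17.3. Lengths are those of the merged exons of all annotated transcripts, and a shorter transcript in use would raise a gene's value.

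**Figure D3:**
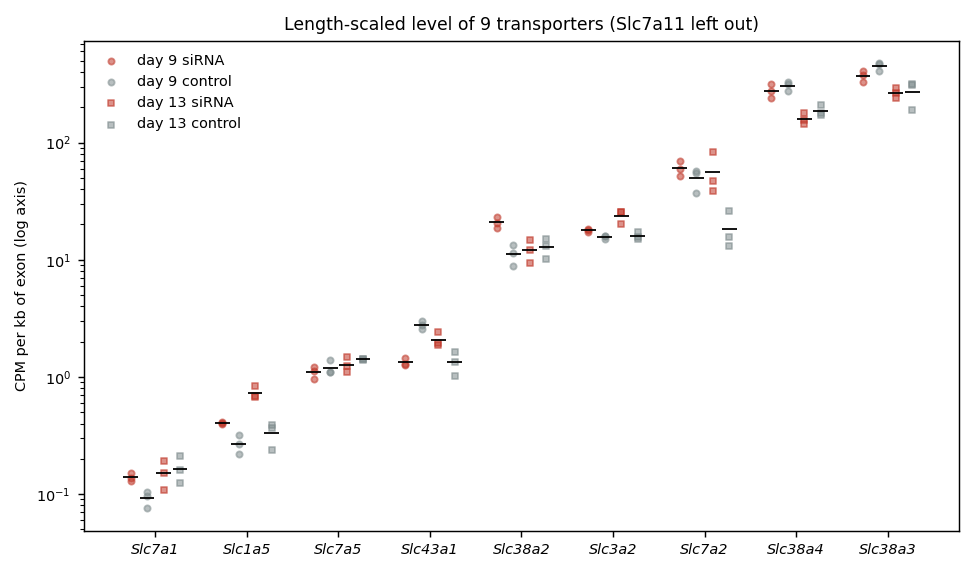
Level per kilobase of merged exon in CPM, on a log axis, for 9 members ordered by their mean in the day 9 controls, with 1 point per library and a bar at each group mean; red marks siRNA and grey control, circles day 9 and squares day 13. Slc7a1 and Slc1a5 lie below 1 CPM per kilobase and Slc38a3 and Slc38a4 above 100 in every library.

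Among 9306 other genes that averaged 5 CPM or more, the one whose log2 CPM, centred on the mean of its day, was most like that of each called member over the 12 libraries was identified. It was Ppm1b for Slc7a2 (Pearson's r = 0.973), Stt3b for Slc38a2 (0.922) and Slc22a15 for Slc43a1 (0.95). For Slc3a2 and Slc1a5 the processed pseudogenes Rpl31-ps8 (0.979) and Gm14681 (0.978) came first, whose counts are uncertain because such copies share reads with their parent genes. These correlations all contain the siRNA difference that the libraries share and are given as descriptions.

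Other amino acid transporters of the plasma membrane were followed for comparison. Beside the counts of this and the later lists, 5.94% of all genes tested were higher and 6.84% lower at day 9. At day 13 these shares were 12.8% and 10.9%. The median log2 fold change over all genes was 0.01 at day 9 and 0 at day 13. Of the 30 genes of that list, 15 were tested, of which 2 rose and 0 fell at day 9 (median log2 fold change 0.07) and 0 rose and 5 fell at day 13 (median -0.27). Slc43a2 (LAT4), a relative of Slc43a1, was at 17.5 ± 0.540 CPM in day 9 siRNA livers and 11.1 ± 0.137 CPM in day 9 controls (SD, n = 3), and rose by 0.65 on the log2 scale (adjusted p = 0.00128). At day 13 it was at 11.8 ± 0.523 CPM in siRNA livers and 14.3 ± 1.26 CPM in controls (SD, n = 3, log2 fold change -0.27, not called). Its difference between the days of -0.92 was called (adjusted p = 0.00916), opposite in sign to that of Slc43a1. Slc7a7, the light chain y+LAT1, was the other that rose at day 9, by 0.49 on the log2 scale (adjusted p = 0.0387). At day 13 the glycine carrier Slc6a9 was at 13.1 ± 0.487 CPM in siRNA livers and 27.5 ± 5.6 CPM in controls (SD, n = 3), and fell by 1.06 on the log2 scale (adjusted p = 0.000729). Slc1a4 (ASCT1), a relative of Slc1a5, fell by 0.77 and the glutamate carrier Slc1a2 fell by 1.01 on the log2 scale (adjusted p = 0.00634 and 0.00802). The other 2 that fell at day 13 were the taurine carrier Slc6a6 (-0.59) and Slc38a6 (-0.59), named after their values were seen.

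Inside the cell, lysosomal transporters (7 of 8 tested) had 0 higher and 1 lower at day 9 (median -0.26) and 1 higher and 2 lower at day 13 (median 0.14). The shares over all genes were 5.94% higher and 6.84% lower at day 9, and 12.8% and 10.9% at day 13. Mfsd12, which brings cysteine into lysosomes, fell on both days (log2 fold change -0.60 and -1.06), Slc36a1, a proton-coupled carrier, fell at day 13 (-0.78), and Slc38a7, a lysosomal glutamine carrier of the SLC38 family, rose at day 13 (0.45). Mitochondrial carriers (12 of 14 tested) had 1 higher and 1 lower at day 9 (median 0.05) and 2 higher and 1 lower at day 13 (median 0.06). Slc25a39, which carries glutathione rather than a free amino acid, was at 554 ± 68.8 CPM in day 13 siRNA livers and 213 ± 39.8 CPM in day 13 controls (SD, n = 3) and rose on both days (0.60 and 1.37). Sfxn2 fell at day 9 (-0.71), the serine carrier Sfxn1 rose at day 13 (0.30) and Slc25a44, a carrier of branched-chain amino acids, fell at day 13 (-0.46).

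The GCN2-ATF4 list of 13 genes, all tested, had 7 higher and 0 lower at day 9 (median 0.85) and 7 higher and 1 lower at day 13 (median 1.18). The shares over all genes were 5.94% higher and 6.84% lower at day 9, and 12.8% and 10.9% at day 13. Ddit3, which encodes the factor CHOP, had log2 fold changes of 2.6 and 4.2 at day 9 and day 13, Atf5 of 1.99 and 2.73, Cebpg of 1.00 and 1.18, and the pseudokinase Trib3 of 1.69 and 5.16. Of the transporters named above as known ATF4 targets, Slc3a2 and Slc38a2 were each called higher at 1 day and Slc7a5 at neither. Slc7a11 was too low to test. The other transporters were not sorted by whether ATF4 targets them, so this is no tally of all such targets. The 1 gene of the list that fell at day 13 was Ddit4, an inhibitor of mTORC1 signalling (-1.195), named after its values were seen. Those called at neither day are also named after their values were seen. They were Eif2ak4 (-0.31 at day 9 and -0.33 at day 13), Atf4 (-0.26 and 0.04), Cebpb (0.55 and 0.21), Chac1 (-0.55 and -2.33) and Vldlr (0.001 and 0.57).

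Of 27 enzymes that act on the carried amino acids, 25 were tested, with 1 higher and 4 lower at day 9 (median -0.13) and 5 higher and 3 lower at day 13 (median -0.08). The shares over all genes were 5.94% higher and 6.84% lower at day 9, and 12.8% and 10.9% at day 13. Gpt2, which interconverts alanine and glutamate, was at 329 ± 26.9 CPM in day 13 siRNA livers and 164 ± 20.8 CPM in day 13 controls (SD, n = 3, log2 fold change 1.00). Glutamine synthetase, Glul, fell by 0.73 at day 13. The urea cycle enzyme Otc fell by 0.46 at day 9 and by 0.73 at day 13, Ass1 fell by 0.78 at day 9, and Hpd, of tyrosine breakdown, fell by 0.62 at day 9 and by 0.44 at day 13 on the log2 scale. Named after their values were seen, Tat, Cps1, Psph and Arg1, enzymes of tyrosine breakdown, the urea cycle, serine synthesis and the urea cycle, rose at day 13 by 0.37 (Arg1) to 1.21 (Tat).

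**Figure D4:**
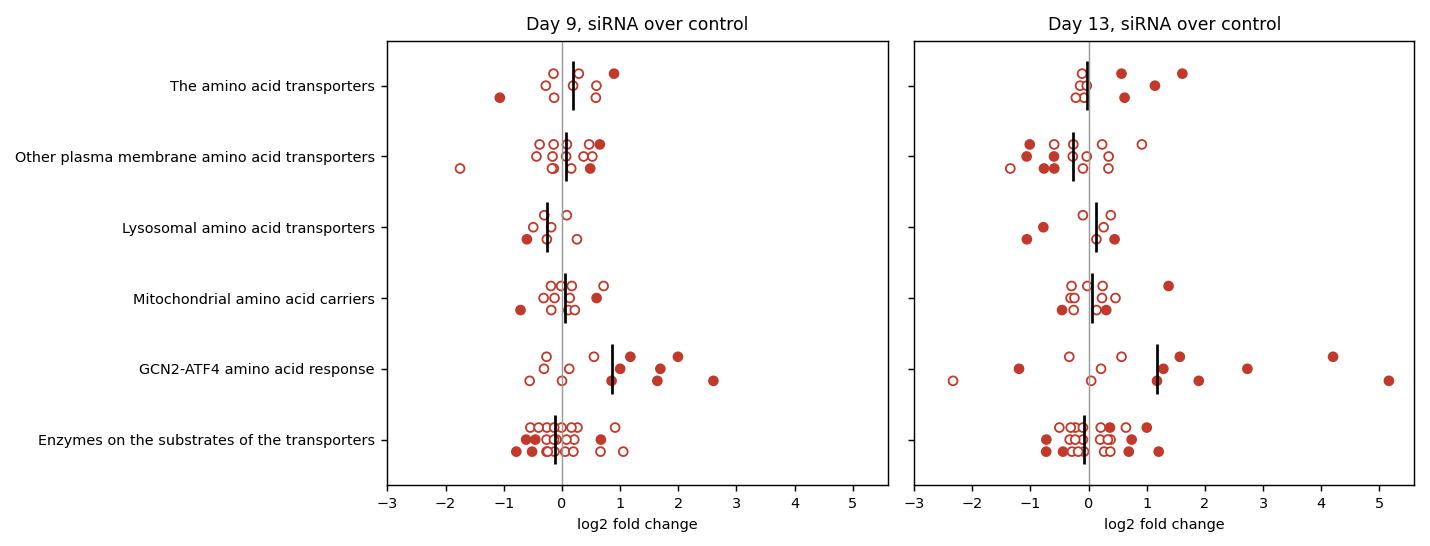
log2 fold change of siRNA over control at day 9 (left) and day 13 (right) for the 9 amino acid transporters tested and for 5 further lists; each point is a gene, filled where its adjusted p was under 0.05, and the bar is the list median. The other plasma membrane transporters have 2 filled points right of 0 at day 9 and 5 left of 0 at day 13.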

How the data were processed

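RNA from ground whole liver was captured as mRNA and sequenced, per the labels' protocols, in 12 libraries. The deposited values are expected counts per gene, whole numbers as deposited. STAR 2.5.3a, RSEM 1.3.0 and mm10 are named in the submitters' processing notes, and the strand setting is not given in the sources used here. Identifiers that matched no gene held 0.0199% of the counts. Symbols, positions and exon lengths came from GENCODE M21.

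Genes were kept by edgeR's filterByExpr (minimum count 10), which left 14248 genes, scaled by TMM and tested with edgeR 4.0.16 (R 4.3.3) by robust quasi-likelihood in a model of 4 groups with 12 libraries and 8 residual degrees of freedom, with Benjamini-Hochberg adjustment over all genes. Both days share 1 estimate of the spread, although the median SD of log2 CPM within a group was 0.13 to 0.14 at day 9 and 0.25 to 0.27 at day 13. Alternatives used DESeq2 1.42.0, limma 3.58.1 (voom), other scalings and filters, single days, a replicate block and leaving out libraries. Depth limits the precision of genes with low counts: 1 count is 0.0167 to 0.0257 CPM at day 9 and 0.0927 to 0.143 CPM at day 13. Replicates of a group differed by more than counting error. Limits from counts of 0 cover counting error only.

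The members and the lists were chosen with earlier results of these data known. All members are named, and from each list the 3 called genes with the smallest p at each day, with any called in opposite directions. Not every called gene of the lists is reported here. Figures were drawn with matplotlib 3.10.9.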

Additional observations from a re-analysis of the deposited data

Results flagged for a closer look

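The siRNA effect on Slc43a1 differed between the days, which was tested as an interaction over all genes: the day 13 effect minus the day 9 effect was 1.69 on the log2 scale (edgeR's quasi-likelihood test, adjusted p = 0.00277). The siRNA libraries were below every control in 3 of 3 at day 9 and above every control in 3 of 3 at day 13. Such separation held for 21.0% of all genes (lower, day 9) and 17.2% (higher, day 13), each day taken alone. The share of genes apart in opposite directions on the 2 days was not counted. The day 13 call ended in 4 alternatives, with an adjusted p of 0.0773 in edgeR's test on day 13 alone. Controls averaged 15.95 CPM at day 9 and 7.61 CPM at day 13, and day and library set cannot be told apart.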

How the results depend on the processing

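Thinning day 9 to the depth of day 13 and leaving out day 13 control replicate 3 with siRNA replicate 2 were chosen after seeing the data. Of 459 alternatives for single members, 428 kept direction and side of the threshold, 4 lost the call (all Slc43a1 at day 13), 7 gained one and 20 turned a direction, each for an effect that was not called. The genes that differed between the days, 128 higher and 236 lower, were 64 and 146 after thinning, 471 and 520 by DESeq2, and 317 higher without both libraries, with 34 to 278 higher and 88 to 250 lower when single libraries were left out. Members that differed were 2 higher by DESeq2 and without both libraries, 1 lower by DESeq2 and with upper-quartile scaling, and 0 to 1 lower without single libraries. Fitted on its own 6 libraries, day 13 gave 1060 higher and 954 lower genes (main counts 1824 and 1553) and day 9 gave 1687 and 1725 (846 and 975). Without single libraries day 13 gave 1289 to 1698 and 1085 to 1632, with 3 to 4 members higher, and day 9 gave 373 to 499 and 502 to 694. Thinning gave 491 higher and 606 lower at day 9, and limma-voom 1315 higher with 3 members. The cause was not tested. Directions that turned were those of Slc38a3 at day 13 (0.0039 with limma-voom), the Slc7a5 difference (0.0078 with no filter) and, without single libraries, Slc38a2 (-0.263 to 0.0735), Slc38a3 (-0.236 to 0.0702) and Slc7a1 (-0.303 to 0.0918) at day 13 and the differences of Slc38a4 (-0.166 to 0.0319) and Slc7a5 (-0.135 to 0.0898).

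Correlations of deviations were -0.158 to 0.158 between same-numbered libraries and -0.143 to 0.225 between libraries of different numbers. The labels give the numbers no meaning, and so few pairs cannot exclude a pairing. With a replicate block 542 genes were higher at day 9, 28 were higher and 89 lower for the difference, and Slc38a3 at day 13 was 0.00079. A minimum mean of 5 CPM left no value for Slc7a1, Slc1a5 and Slc7a5, and depth limits these and Slc7a11 most at day 13.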
